A study of Mus musculus with 2 samples.

Results

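The genes examined here were 9 inhibitors of the cell cycle and tumour suppressors of the mouse, Cdkn2a, Cdkn2b, Cdkn2c, Cdkn2d, Cdkn1a, Cdkn1b, Trp53, Rb1 and Rassf1. They were chosen by name, as genes whose promoters can be silenced by methylation in cultured cells and tumours. For each gene, the cytosines measured by reduced representation bisulfite sequencing (RRBS) in its gene body and the 2 kb upstream were taken. Of 826937 measured cytosine positions, 448 lay in these genes. They belonged to 408 CpGs in 8 of the 9 genes, and Cdkn2d had no covered position.

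The study compared mouse embryonic fibroblasts (MEFs) of strain C57BL/6 that were wildtype (wt) or carried no functional gene for oestrogen receptor beta (ESR2 -/-, called βerko). RRBS reads the methylation of CpGs near MspI sites, which have the sequence CCGG, because DNA is cut there and short fragments are kept before bisulfite treatment. There was 1 library per genotype, made from a pool of 3 batches of DNA, so that the differences given here are between 2 libraries and the spread between cultures cannot be told. Both libraries held fragments of 160 to 340 bp and had been amplified by 19 cycles of PCR.

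Dividing cells pass from G1 into S phase when cyclin-dependent kinases phosphorylate the retinoblastoma protein, which then releases E2F factors. The INK4 proteins block the kinases that work with D-type cyclins, the CIP/KIP proteins block a wider range of cyclin-kinase complexes, and p19Arf, made from the Ink4a/Arf locus in another reading frame, stabilises p53 by holding back Mdm2. CpG islands at the starts of such genes are usually free of methylation, and dense methylation there goes with a silent promoter. Fibroblasts in culture accumulate Ink4a/Arf products as they approach senescence, and cell lines that grow on have often lost the locus, p53 or their expression.

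Methylation is given as the percentage of reads that were methylated at a position, and a difference is βerko minus wt in percentage points. The number of reads was used only at differentially methylated positions (DMPs), which had more than 4 reads in both libraries and were below 20 % in either of them while exceeding 80 % in the remaining one. At DMPs the median was 23 reads in wt and 43 in βerko MEFs, and at other positions the depth is unknown. Reads amplified by PCR carried no molecular identifiers and cannot be counted as separate molecules, which means that the read intervals below cover counting error only. Over all positions, 10.4 % were lower in βerko by at least 20 percentage points and 6.81 % were higher. At Esr2, the targeted gene, 32 covered positions averaged 54.0 % in wt and 44.8 % in βerko MEFs, which does not check the deletion itself. Only 3 of 10 fibroblast genes had a measured promoter, Fn1 and Pdgfrb with means of at most 1.22 % in either library and Col1a2 at 93.6 % in wt and 48.3 % in βerko MEFs (5 positions). Of 8 genes of other cell types only Krt18, a keratin of simple epithelia, was measured (61.7 % in wt, 41.5 % in βerko, 27 positions), so that these promoters could hardly check the cell type. Whether the cell makeup had a part in the results below was not tested.

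The 8 covered genes were mostly unmethylated in both cell types. Of their 448 positions, 396 (88.4 %) were below 20 % in wt and 405 (90.4 %) in βerko MEFs, and 282 (62.9 %) were at 0 in both libraries, compared with 29.3 % of all measured positions. A shift of at least 20 percentage points was found at 24 positions, of which 20 (4.46 %) were lower and 4 (0.893 %) higher in βerko MEFs. These shares lay below those of all positions given above. However, only 50.3 % of all positions were below 20 % in wt, a level from which a loss of 20 percentage points is not possible. The shares are therefore not compared at like levels here, and shares by level in wt are given further below. The 24 positions lay in 5 genes, 11 in Rassf1, 5 in Cdkn2a, 4 in Trp53, 3 in Rb1 and 1 in Cdkn1a. A single position met the criterion of a DMP. It was a hypomethylated DMP in Cdkn2a. Of all positions, 0.700 % were hypomethylated DMPs and 0.237 % hypermethylated DMPs. These shares count the 7747 positions that met the criterion as applied here, of the 8071 DMPs that the study listed. Coverage of the CpGs ranged from 4.97 % in Rb1, the longest gene with 142150 bp, to 24.4 % in Cdkn2c.

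**Figure D1:**
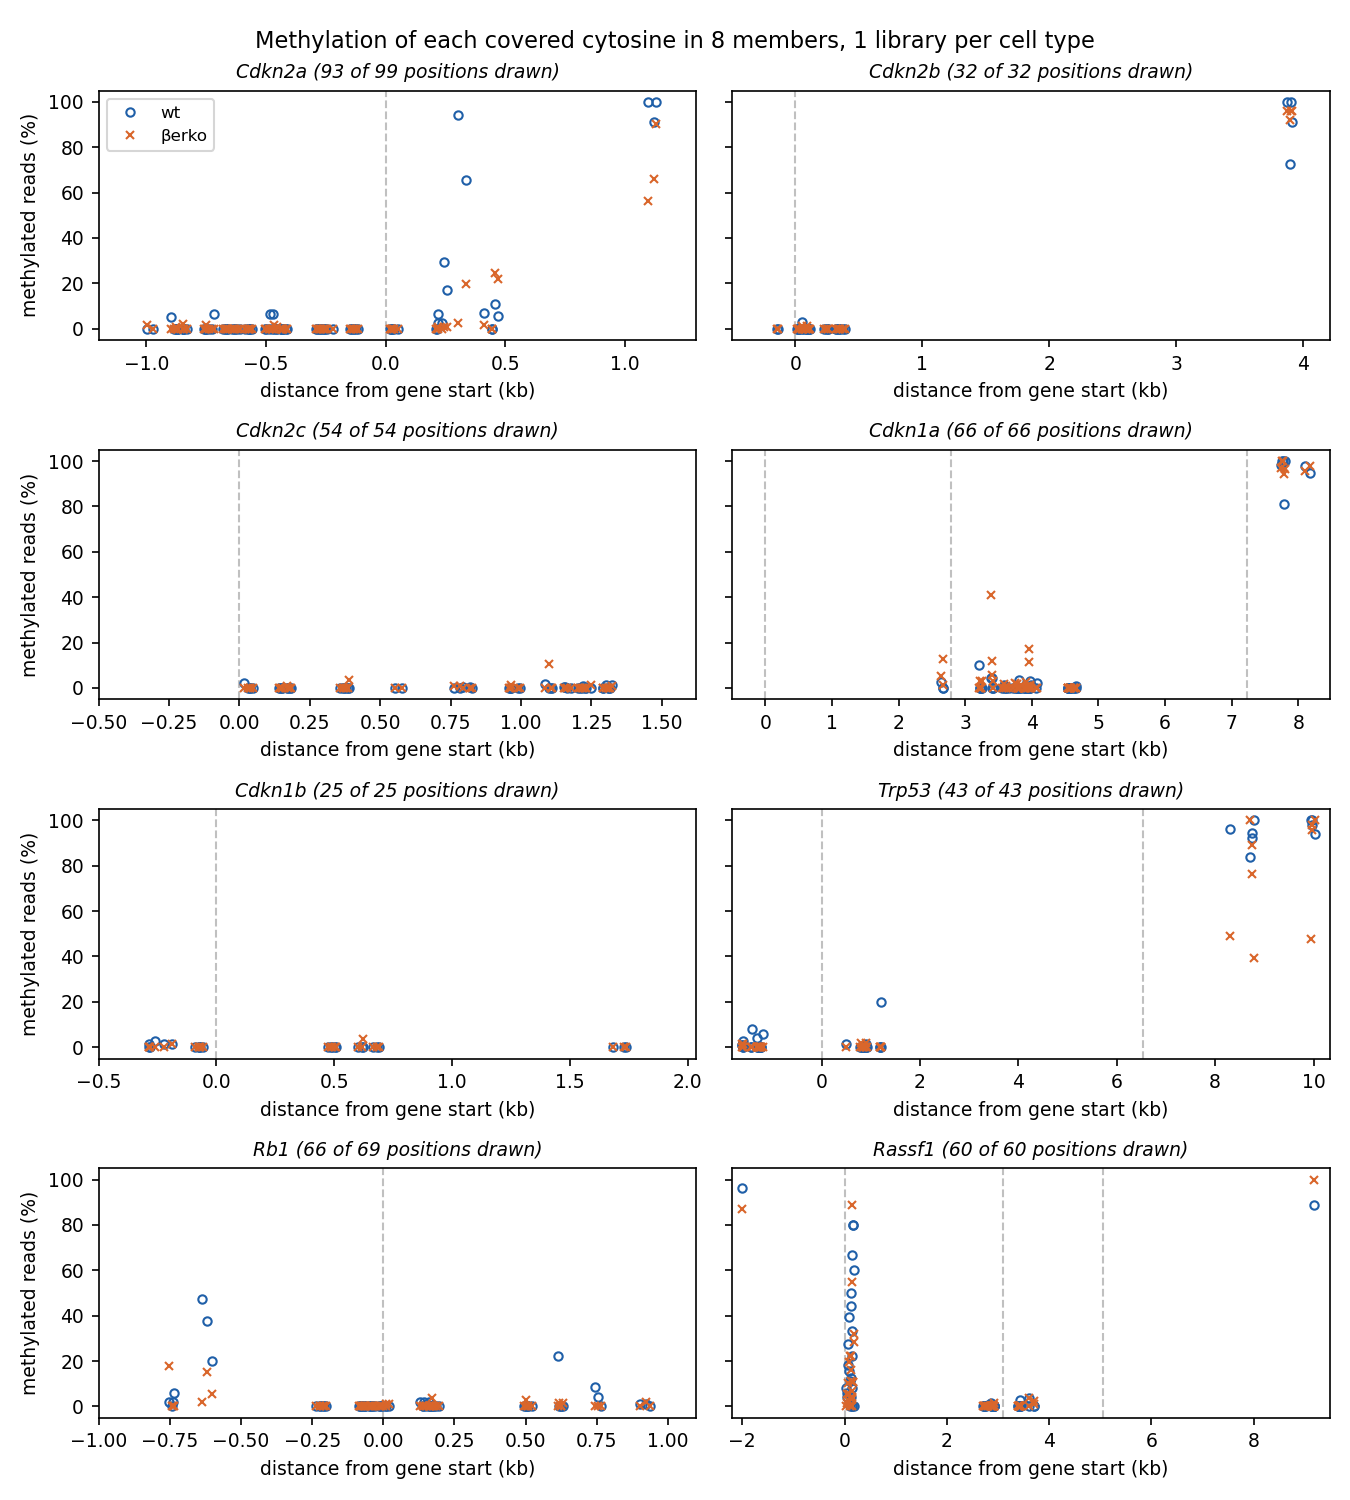
Percentage of methylated reads (y axis) at covered cytosines against distance from the annotated gene start in kb (x axis) in 8 genes, wt as circles and βerko as crosses, with dashed lines at annotated protein-coding starts; 6 positions of Cdkn2a from +19796 bp and 3 of Rb1 from +111768 bp lie outside the axes. Positions near the starts sit mostly at or close to 0 in both libraries, with partly methylated positions in Cdkn2a, Rb1, Rassf1 and Cdkn1a, and positions far inside Cdkn2b, Cdkn1a and Trp53 are mostly above 80 % in wt.

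Cdkn2a encodes p16Ink4a, an INK4 inhibitor, and p19Arf from separate first exons that share a second exon. The gene lies at chr4:88920377-88940557 on the minus strand of NCBIM37 (mm9), and its annotated 5′ end is the start of the p19Arf transcript. Of 99 covered positions, 90 lay in the promoter, defined throughout as -2000 to +500 bp of the gene start, and 9 in the rest of the gene. From -996 to +50 bp, the 76 covered positions averaged 0.330 % in wt and 0.115 % in βerko MEFs. Thus the CpG island at the p19Arf start was unmethylated in both cell types. Further into the first exon and the intron behind it, from +211 to +471 bp, 14 positions averaged 17.3 % in wt and 5.20 % in βerko MEFs (difference -12.1 ± 27.9, SD over positions). This stretch held the DMP.

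The DMP is shown with its surroundings, together with the next CpG measured, because they carry the largest differences of the gene. Both sequences are from NCBIM37, read 5′ to 3′ on the minus strand with the CpGs in capitals.
Cdkn2a first exon, chr4:88940238-88940267: gaagagggcCGcacCGgaatcctggaccag
Cdkn2a first intron, chr4:88940207-88940236: taggaaaggccctcCGaagctgcaCGcaca
In the first sequence, 1 of the 2 CpGs was covered, the one within the MspI site at position 88940253 (+304 bp), in the coding part of the exon. It was methylated in 94.29 % of reads in wt (33 of 35 reads, exact 95 % interval 80.8 to 99.3 %) and in 2.36 % in βerko MEFs (3 of 127 reads, interval 0.490 to 6.75 %). The share of methylated reads differed there between the libraries (Fisher's exact test, two-sided, p = 1.43e-28, adjusted p over 826937 positions of 2.84e-25), a test that compares the 2 libraries and not the genotypes. The position was picked by these same percentages, so that the test adds only the counting error to their description. In the second sequence, 1 CpG was covered, at 88940222 (+335 bp), with 65.71 % in wt and 19.69 % in βerko MEFs.

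Neighbours of the DMP did not all follow it. At +243 bp methylation was 29.27 % in wt and 0.93 % in βerko, and at +255 bp 17.07 % and 0.93 %. In the other direction, 2 intronic positions at +459 and +471 bp had 11.11 and 5.56 % in wt and 24.39 and 21.95 % in βerko MEFs, differences of less than 20 percentage points. Positions on the minus strand of the stretch averaged 27.3 % in wt and 3.31 % in βerko MEFs (n = 8), and those on the plus strand 3.89 and 7.72 % (n = 6). Of 8 Cdkn2a CpGs covered on both strands, 0 differed between the strands by 20 percentage points, but 0 of them were partly methylated in either library. The DMP and the CpG at +335 bp were covered on the minus strand only, so that their strands could not be compared.

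The body of Cdkn2a was highly methylated in both libraries. Its 9 positions averaged 94.5 % in wt and 84.2 % in βerko MEFs (difference -10.3 ± 16.5, SD over positions). The 3 intronic positions from +1097 to +1129 bp averaged 97.0 % in wt and 70.9 % in βerko MEFs. They had 100 % and 56.34 % at +1097 bp and 90.91 % and 66.2 % at +1123 bp. The 6 positions near the 3′ end, from +19796 bp, averaged 93.3 % and 90.9 %. They differed in both directions, with 93.33 % in wt and 76 % in βerko at +19813 bp and 80 and 92 % at +19820 bp. The positions lower by at least 20 percentage points thus lay in the intron next to the p19Arf exon. The start of the p16Ink4a transcript at 88928096, 12461 bp into the gene, had no covered position within 500 bp, although 37 CpGs and 4 CCGG sites lie there. Methylation of the p16Ink4a start was therefore not measured.

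Cdkn2b encodes p15Ink4b, an INK4 inhibitor induced by TGF-beta, and lies next to Cdkn2a at chr4:88952198-88956941. Its promoter was unmethylated, with 28 positions at 0.102 % on average in wt and 0.0768 % in βerko MEFs and a highest value of 2.86 %. Its body was represented by 4 positions of a coding exon, which averaged 90.9 % in wt and 94.96 % in βerko MEFs. There the difference was largest in this gene, with 72.73 % in wt and 92 % in βerko at +3892 bp.

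Cdkn2c encodes p18Ink4c, an INK4 inhibitor that also acts in differentiating cells, and lies at chr4:109333481-109339794. All 54 positions were below 20 % in both libraries, and averaged 0.186 and 0.367 %. The 19 promoter positions averaged 0.107 and 0.225 %. The highest value was 10.61 % in βerko against 0 in wt, at +1098 bp in the 5′ UTR.

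Cdkn2d encodes p19Ink4d, the remaining INK4 inhibitor, and lies at chr9:21092907-21095653. The gene and its upstream region hold 118 CpGs and 19 CCGG sites, and 66 of these CpGs and 10 sites lie within 500 bp of its start. None was covered in both libraries, so that its methylation is not given.

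Among the CIP/KIP inhibitors, Cdkn1a encodes p21, a main transcriptional target of p53. At chr17:29227924-29237667 its annotated 5′ end belongs to an upstream transcript, and no position was covered around it. The start of the principal p21 transcript lies 2793 bp further into the gene. Within 500 bp of it, 9 positions averaged 1.38 ± 3.33 % in wt and 2.84 ± 4.24 % in βerko MEFs (SD over positions). These 9 are part of a longer stretch from +2644 to +4667 bp. Its 59 positions averaged 0.569 % in wt and 2.22 % in βerko MEFs, and 20 were higher, 7 lower and 32 equal. The higher mean in βerko MEFs came with a few positions, of which 1 is shown.
Cdkn1a first intron, chr17:29231304-29231354, plus strand: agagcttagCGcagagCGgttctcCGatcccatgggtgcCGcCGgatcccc
All 5 CpGs of this sequence were covered and averaged 1.76 % in wt and 12.4 % in βerko MEFs. The first, measured on the minus strand at 29231314 (+3390 bp), had 4.44 % in wt and 41.18 % in βerko, the largest positive difference in the 8 covered genes. At another CpG both strands were at 0 in wt, with 17.2 % at +3958 bp and 11.39 % at +3959 bp in βerko MEFs. The 7 positions at the 3′ part of the gene, from +7742 to +8171 bp, were methylated in both cell types with means of 96.0 and 97.4 %.

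Cdkn1b encodes p27, which holds cells in quiescence, and lies at chr6:134870419-134875531. No value at its 25 positions exceeded 3.57 % in either library. The 14 promoter positions averaged 0.484 % in wt and 0.117 % in βerko MEFs, and the 11 body positions 0 and 0.325 %. The largest difference was at +623 bp, with 0 in wt and 3.57 % in βerko.

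Trp53 encodes p53, the transcription factor that links DNA damage to cell cycle arrest, and lies at chr11:69393861-69405375. Its start was hardly covered, with 1 position within 500 bp (1.3 % in wt, 0 in βerko). The 20 promoter positions, 19 of them upstream of the gene, averaged 1.17 % in wt and 0.128 % in βerko MEFs, and 34 of the 43 positions also lie in Wrap53, the divergent neighbour, or in the 2 kb upstream of it. Across these 34 positions, from -1621 to +1214 bp, a single one differed by 20 percentage points, with 20 % in wt and 0 in βerko at +1205 bp.

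Deeper in Trp53, 9 positions from +8294 to +10029 bp averaged 95.4 % in wt and 77.2 % in βerko MEFs (difference -18.2 ± 28.0, SD over positions). The mean hides a split among them. At 3 of the 9 positions the difference ranged from -60.87 to -47.5 percentage points, and these are shown with their surroundings, since neighbouring covered CpGs in this part of the gene had higher levels.
Trp53 exon, chr11:69402141-69402170, plus strand: ccagcatcttatcCGggtggaaggaaattt
Trp53 next exon, chr11:69402632-69402661, plus strand: tcttcccccaggcCGgctctgagtatacca
Trp53 3′ part, chr11:69403801-69403851, plus strand: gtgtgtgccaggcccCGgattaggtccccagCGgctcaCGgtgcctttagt
In the first 2, the CpG shown lies in an MspI site of a coding exon. At 69402155, 96.36 % of reads were methylated in wt and 48.86 % in βerko MEFs, and at 69402646 these shares were 100 % and 39.13 %. In the last, in an exon of a non-coding transcript of the gene, the first CpG at 69403816 had 100 % and 47.83 %. The CpGs behind it, at 69403832 and 69403839, had 100 % and 97.87 % in wt and 97.83 and 95.65 % in βerko MEFs. The remaining positions of this part of the gene ranged from 84 to 94.44 % in wt and from 76.47 to 100 % in βerko.

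Rb1 encodes the retinoblastoma protein, the target of the kinases that the inhibitors block, and lies at chr14:73583480-73725629 on the minus strand. Within 500 bp of its start, 43 positions averaged 0.147 % in wt and 0.129 % in βerko MEFs, with a highest value of 3.57 %. Its CpG island, where 151 CpGs lie in this window, was thus unmethylated in both. Partial methylation was seen upstream of the island, in the sequence shown here.
Rb1 upstream, chr14:73726224-73726274, minus strand: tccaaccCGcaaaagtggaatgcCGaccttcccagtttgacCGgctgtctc
The 3 CpGs were covered on the plus strand, at -637, -621 and -603 bp. They had 47.5, 37.5 and 20 % in wt and 1.89, 15.09 and 5.66 % in βerko MEFs, and their means were 35 and 7.55 %. Further upstream at -754 bp, methylation was 1.92 % in wt and 17.86 % in βerko. Of the 19 body positions, 16 lay in the first intron close to the start, up to +938 bp, and averaged 2.36 % in wt and 0.495 % in βerko MEFs. Among them, the position at +613 bp had 22.22 % in wt and 0 in βerko. The other 3, from +111768 to +111930 bp, averaged 98.9 % in wt and 96.1 % in βerko MEFs.

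Rassf1 encodes a Ras-association domain protein of the Hippo and microtubule pathways, and its longer form RASSF1A is among the genes most often silenced by promoter methylation in human tumours. It lies at chr9:107453886-107464594, where the first annotated start is that of the RASSF1A-type transcript and the second, 3101 bp further on, that of a shorter RASSF1C-type transcript. The starts differed in their methylation. Around the first, 23 positions averaged 25.8 ± 26.2 % in wt and 15.6 ± 20.6 % in βerko MEFs (SD over positions). Around the second, 31 positions averaged 0.161 % and 0.0539 %, with a highest value of 2.86 %. A start of another annotated transcript, 5056 bp into the gene, was not covered.

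Methylation at the first start lay in the coding part of the first exon, shown here since it holds 11 of the 24 shifted positions of all 9 genes.
Rassf1 first exon, chr9:107453952-107454081, plus strand: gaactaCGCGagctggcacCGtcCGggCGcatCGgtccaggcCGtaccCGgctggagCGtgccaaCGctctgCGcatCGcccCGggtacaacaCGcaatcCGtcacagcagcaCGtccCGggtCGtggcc
Of its 18 CpGs, 14 were covered at 20 positions, which averaged 28.7 % in wt and 17.6 % in βerko MEFs (difference -11.1 ± 27.2, SD over positions). Of the 20, 12 were lower in βerko MEFs, 7 higher and 1 equal. At 8 positions methylation was lower by at least 20 percentage points and at 3 it was higher. Closer to the start, 3 positions from +36 to +49 bp had at most 8.16 % in either library.

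The 8 positions with lower methylation lay from +73 to +180 bp. The positions at +160 and +167 bp each had 80 % in wt and 10.71 % in βerko MEFs, which is at the limit of 80 % and so just outside the criterion of a DMP. At +123 bp it was 50 % and 11.11 %, at +131 bp 44.44 and 22.22 %, and at +180 bp 60 and 28.57 %. At +73, +86 and +143 bp, wt values of 22.22 to 39.47 % stood against 0 to 19.44 % in βerko MEFs.

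The higher positions lay among them. At 1 CpG both strands were higher in βerko MEFs, with 66.67 % in wt and 88.89 % in βerko at +138 bp on the plus strand and 33.33 and 54.84 % at +139 bp on the minus strand. At +185 bp methylation was 0 in wt and 32.14 % in βerko. Hence the exon was partly methylated in both cell types, and the measured differences of neighbouring CpGs had opposite signs. The read depth in this exon is unknown, so that the counting error of the lower and higher positions cannot be given.

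The strands of a CpG also differed in Rassf1. Of the 40 CpGs of the 9 genes that were covered on both strands, 4 in wt and 2 in βerko MEFs differed between strands by at least 20 percentage points, and all of these lay in Rassf1, where 16 CpGs were covered on both strands. At +123 and +124 bp, for instance, the plus strand had 50 % in wt and the minus strand 4.17 %. Of all 70667 CpGs covered on both strands, 9.26 % in wt and 7.93 % in βerko MEFs differed as much, beside 10 % and 5 % of the 40. Among partly methylated CpGs the shares were higher, 38.9 % in wt and 39.4 % in βerko MEFs. In Rassf1 3 of 3 such CpGs in wt and 1 of 1 in βerko MEFs differed, too few for a comparison.

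**Figure D2:**
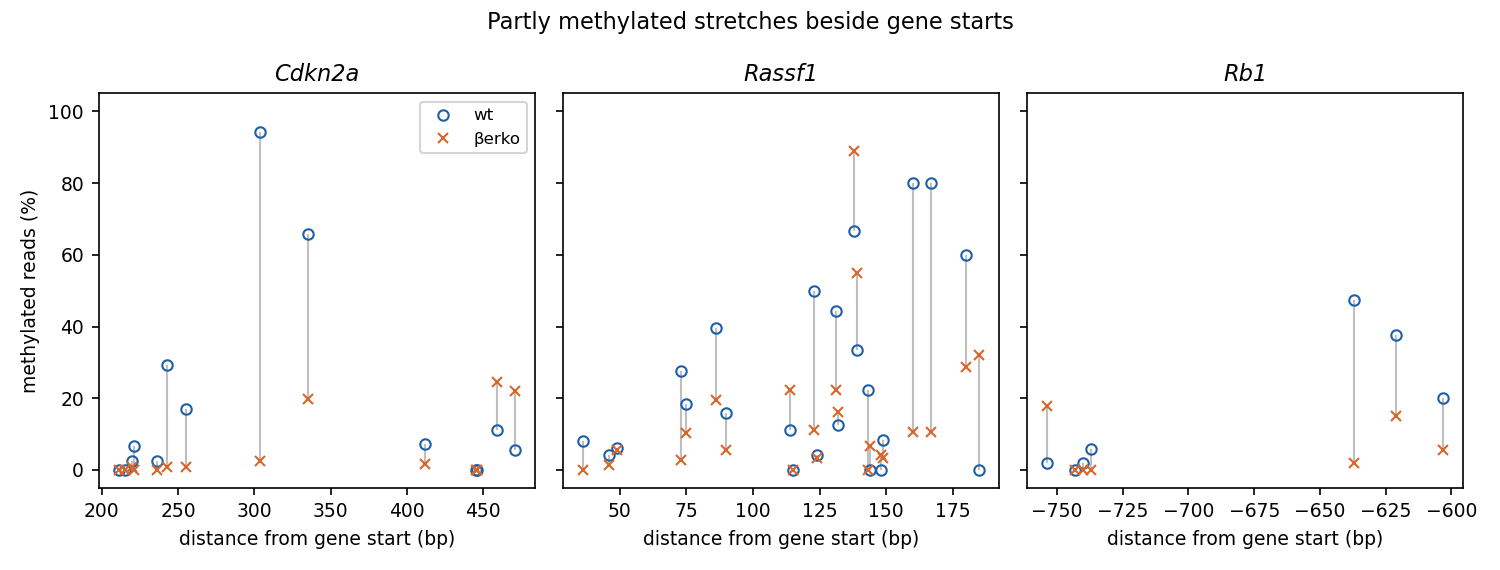
Percentage of methylated reads (y axis) at each covered cytosine against distance from the gene start in bp (x axis) in stretches of Cdkn2a, Rassf1 and Rb1, wt as circles, βerko as crosses, with a grey line joining the values of a position. In Cdkn2a the position at +304 bp spans 94.29 to 2.36 %, in Rassf1 most positions are lower in βerko MEFs with a few higher ones among them, and in Rb1 the 3 positions from -637 to -603 bp are lower in βerko MEFs.

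The promoters of the genes were compared with those of all protein-coding genes that had at least 5 covered positions. Among 7 measured promoters, Rassf1 was the most methylated in both cell types, with 28.7 ± 29.4 % in wt and 18.6 ± 24.9 % in βerko MEFs (n = 24 positions, SD over positions). Cdkn2a followed in wt with 2.96 %, Rb1 with 2.42 % and Trp53 with 1.17 %. The order of Cdkn2a and Rb1 was turned in βerko MEFs, where they had 0.907 and 0.921 %, values that differ by less than the spread over positions. Cdkn1b, Cdkn2c and Cdkn2b were at most at 0.484 % in both. Of the 24 Rassf1 positions, 23 lay in the first exon, from +36 to +185 bp. The other, at -2000 bp (96.43 % in wt, 86.84 % in βerko), also lies in the neighbour Zmynd10 or the 2 kb upstream of it. No position between them was covered, so that the Rassf1 mean describes mainly the first exon.

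No promoter mean differed by 20 percentage points. In comparison, 4.96 % of 11970 promoters were lower in βerko MEFs by as much and 0.485 % higher. The difference was -10.1 percentage points in Rassf1, -2.06 in Cdkn2a, -1.50 in Rb1, -1.04 in Trp53, -0.37 in Cdkn1b, -0.025 in Cdkn2b and 0.12 in Cdkn2c. In Rassf1 it was smaller than its SD over positions of 24.9, and 10.5 % of all promoters had a mean difference as low. The median over the 7 genes was -1.04, beside -0.232 over all promoters. A mean of at least 20 % was found in 1 of the 7 promoters in wt, Rassf1, and in none in βerko MEFs, where 19.4 % of all promoters in wt and 14.8 % in βerko MEFs reached it. Of 8 starts with at least 5 covered positions in the genes, 1 was at 20 % or more in wt, that of RASSF1A, compared with 18.2 % of 13699 start windows. Thus in neither cell type was a measured promoter of these genes densely methylated throughout.

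**Figure D3:**
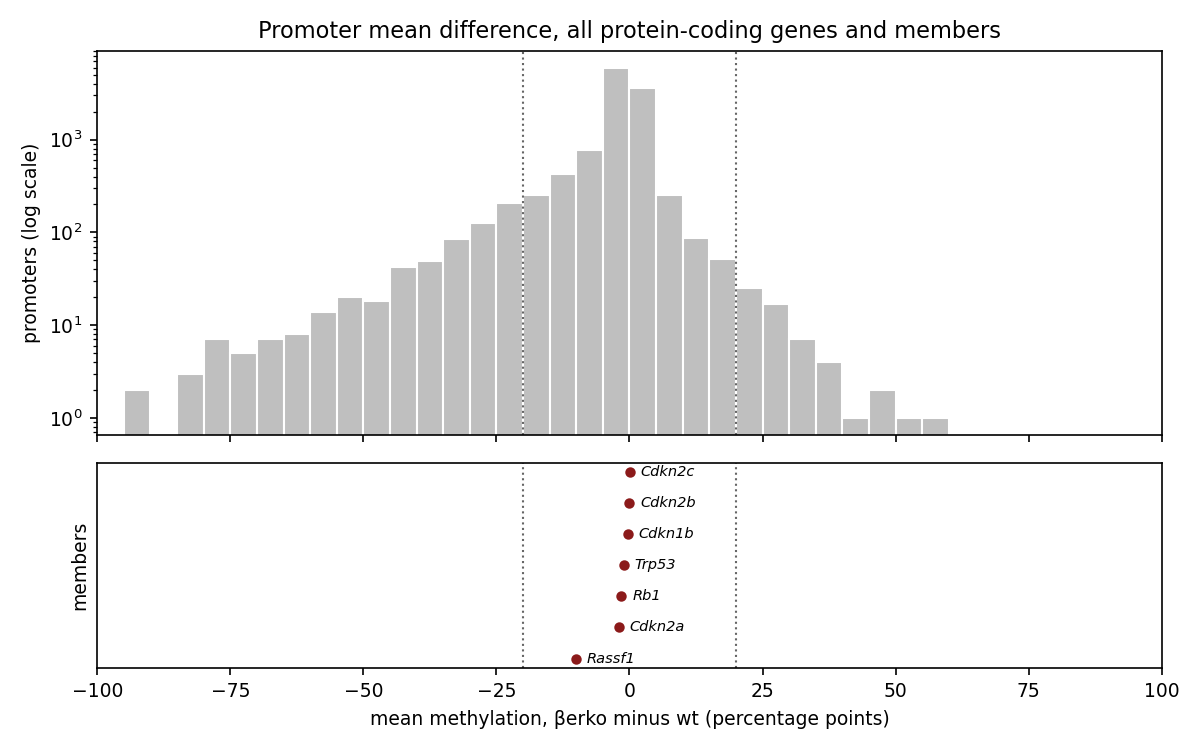
Upper panel, number of promoters (log scale) by mean methylation difference, βerko minus wt in percentage points, for 11970 protein-coding genes in bins of 5; lower panel, the same difference for 7 of the genes described, with dotted lines at -20 and 20. Rassf1 lies at -10.1 and the other 6 between -2.06 and 0.12.

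In the gene bodies, 7 of the genes had at least 5 positions, and the median difference was 0.21 percentage points compared with -0.487 over 11435 bodies. No body mean differed by 20 percentage points, where 3.48 % of all bodies were lower and 1.02 % higher by as much. The bodies fell into different kinds. That of Cdkn2a was methylated (94.5 % in wt). The covered body positions of Cdkn2c and Cdkn1b were nearly free of methylation in both libraries (means of at most 0.444 %). They lay from +552 to +1323 bp in Cdkn2c, a gene of 6314 bp, and from +504 to +1737 bp in Cdkn1b, a gene of 5113 bp. Methylation further into these genes was not measured. The bodies of Trp53, Rb1, Cdkn1a and Rassf1 mixed unmethylated and methylated positions. In Rassf1, 35 of 36 body positions lay around the second start, from +2718 to +3711 bp, with means of 0.253 % in wt and 0.257 % in βerko MEFs, and the only deeper one, at +9190 bp in an intron, had 88.89 and 100 %. In the other 3 genes the means were 38.3 % in wt and 30.4 % in βerko for Trp53, 17.6 and 15.6 % for Rb1, and 10.7 and 12.3 % for Cdkn1a. Over all 11435 bodies the median was 68.8 % in wt and 67.1 % in βerko MEFs.

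**Figure D4:**
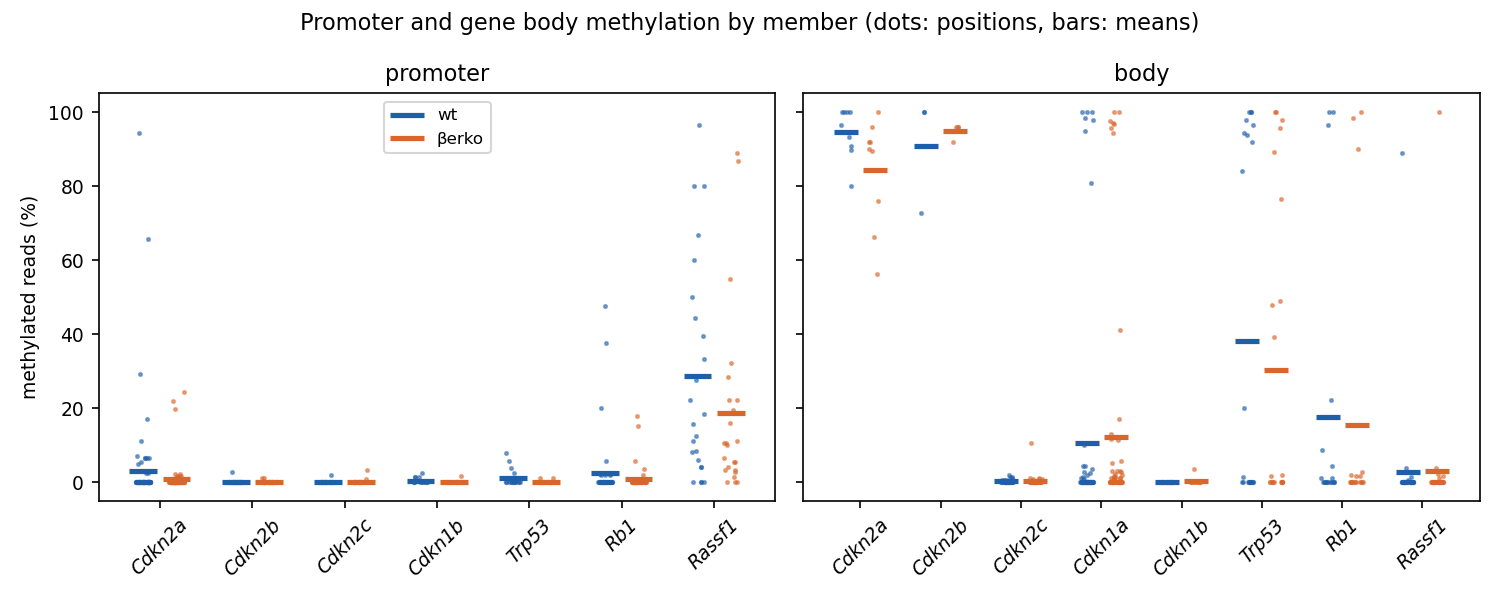
Percentage of methylated reads (y axis) for promoter positions (left) and gene body positions (right) by gene, dots for single positions and bars for means, wt in blue and βerko in orange. Promoter means are at most 2.96 % except in Rassf1 (28.7 and 18.6 %), and body means range from 0 in Cdkn1b to 94.96 % in Cdkn2b.

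Positions were also grouped by where they lay and by their level in wt. Within 500 bp of an annotated start, 204 of 221 positions were below 20 % in both libraries, and beyond that up to 1500 bp 167 of 183 were. Over 1500 bp from a start, 22 of 44 positions were above 80 % in wt and 19 in βerko MEFs. All 99 positions in 5′ UTRs were below 20 % in both. Of 33 positions above 80 % in wt, 6 (18.2 %) were lower by at least 20 percentage points, beside 15.6 % of all positions of that level. Of 396 positions below 20 % in wt, 2 (0.505 %) were higher by as much, beside 3.58 % of all positions of that level. Of the 19 positions between these levels in wt, 10 of them in Rassf1, 14 (73.7 %) were lower and 2 (10.5 %) higher, beside 30.9 % and 29.0 % of all positions of that level.

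Other genes of the same pathways were looked at by their promoter means. Of cyclins, cyclin-dependent kinases and E2F factors, 10 of 11 were measured, all below 20 % in both libraries, and 0 differed by 20 percentage points (median difference 0.034). Of pocket proteins, p53 regulators and related inhibitors, 7 of 10 were measured, again with 0 shifted (median difference -0.29). All 8 Polycomb repressors, which keep the Ink4a/Arf locus silent in young cells, were measured and 0 were shifted (median difference -0.22). Of these, 2 were at 20 % or more in both libraries. They were Cbx7 (93.3 % in wt, 90.8 % in βerko, 5 positions) and Cbx8 (23.4 % in wt, 23.6 % in βerko, 46 positions). Of 19 other tumour suppressors 17 were measured (median difference -1.47). Over all 11970 promoters, 4.96 % were lower by at least 20 percentage points and 0.485 % higher. Of the 17, 0 were higher and 1 was lower by as much. This was Sfrp2, a secreted antagonist of Wnt signalling, with 33.6 % in wt and 7.61 % in βerko MEFs (24 positions). Promoters of at least 20 % numbered 4 of these 17 in wt and 1 in βerko MEFs, beside 19.4 % and 14.8 % of all promoters.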

How the data were processed

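The authors digested pooled DNA with MspI, sequenced bisulfite-treated fragments and used the Genomatix Mining Station for mapping. The submitters' processing notes name CASAVA 1.4 and the build mm9. The authors deposited percent methylation per cytosine that both libraries covered, and read counts at DMPs only. All 826937 positions were CpG cytosines of NCBIM37, and gene models were GENCODE vM1.

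The genes and the lists were chosen with earlier results of these data known. Promoters were -2000 to +500 bp of the gene start, start windows 500 bp either side of protein-coding starts, and regions needed at least 5 positions. A shift was at least 20 percentage points. Named were all 9 genes, their starts, DMPs, largest differences and promoter shifts, and listed genes with a shifted promoter mean. Fisher's exact test was used at the DMP, with Benjamini-Hochberg adjustment over 826937 positions (untested ones at a p-value of 1) and a threshold of 0.05. At other positions no test was run, because no read numbers were used there. Methylated read numbers came out whole at 100 % of DMP table rows, within 0.02 reads. On simulated data at the coverage of DMPs (20200 positions), 140 of 200 changed positions were found, 97 of 97 with at least 20 reads, and 0 of 20000 unchanged ones. The simulated reads were independent and their positions were not picked by percentages. This check therefore does not cover PCR copies or the way the DMP was picked. Depth at DMPs was 5 to 259 reads. Alternatives were other promoter windows, shift sizes, read minimums, medians and merged strands. Expression was not analysed here. SciPy 1.17.1, Python 3.11.15, pandas 2.3.3, matplotlib 3.10.9, NumPy 2.4.6 and pysam 0.24.0 were used.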

Additional observations from a re-analysis of the deposited data

How the results depend on the processing

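Recomputed values were sorted by limits. These were 1.5 times for counts and the SD over genes or starts for medians over them. For a difference of a single gene or start, the limit was the half-width of a normal 95 % interval of its mean over positions. That limit is narrower than the SD over positions and treats positions as independent, so it serves for sorting only. Of 111 values recomputed with other settings, 94 stayed within their limits and 17 moved. The sign turned in 8, of which 3 moved: the body difference of Rassf1 from 0.31 to -3.75 with bodies from the 5′ end, the promoter difference of Cdkn2c from 0.12 to -0.41 with -500 to +100 bp, and the difference at the second start of Rassf1 from -0.11 to 0.19 with 200 bp either side. With a shift of 10 percentage points, 1 promoter was shifted (Rassf1), 17 positions were higher in βerko MEFs, and 5 promoters of the other pathway genes were shifted. With 30 percentage points, 11 positions were lower and 2 higher. The count of promoters of at least 20 % in wt went from 1 to 0 with promoters of -500 to +100 bp or around any protein-coding start, and with medians in place of means. It was also 0 for -2000 bp to the start, where Rassf1 had too few positions to be measured. With -500 to +100 bp, 0 pathway genes were shifted. Limits of 30 and 70 % without a minimum of reads gave 3 positions in place of 1 DMP. Without the positions shared with Wrap53, the body difference of Trp53 was -18.2. No paired analysis was possible because there was 1 library per genotype, and leaving out a replicate was not possible for the same reason. Precision at positions outside DMPs is unknown, since depth is.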
